A study of Mus musculus with 23 samples.

Results

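The genes described are the 5 mouse CXC chemokines Cxcl1, Cxcl2, Cxcl3, Cxcl5 and Cxcl15, which carry a glutamate-leucine-arginine motif and attract neutrophils, and the receptors Cxcr1 and Cxcr2, which bind such ligands. They were chosen by name, and 7 of the 41073 genes counted were members. RNA came from lung epithelial cells of wild-type C57BL/6 mice, selected for the surface protein EpCAM. They were grown on transwell inserts, where the cells are fed from below and meet air on top. Freshly isolated cells gave 3 libraries, cells at airlift (when the medium above them is taken off, before any bacteria) gave 6, untreated cultures at day 4 gave 7, and day 4 cultures exposed to NTHi (non-typeable Haemophilus influenzae), which colonises and infects airways, gave 7. Each of the 3 experiments, named A, B and C, held every group, and the sources used here give neither the dose nor the form of NTHi. The study as labelled asked how NTHi affects the regeneration of lung epithelium. Whether replicates came from different animals or wells is not in the labels, so p-values reflect only how much these samples vary, and that variation may be technical.

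CXC chemokines of this kind are small secreted proteins that bind matrix proteoglycans and form gradients along which neutrophils move into an inflamed airway. Epithelial cells and macrophages make Cxcl1, Cxcl2, Cxcl3 and Cxcl5 after contact with bacterial products, interleukin 1, tumour necrosis factor or interleukin 17, and their transcription depends largely on NF-kB, which binds kappaB sites near the start of the gene. Cxcl15, also called lungkine, is made mainly by lung epithelium. Cxcr2 is the main receptor for most of these ligands on neutrophils, Cxcr1 is its close relative, and both also occur on other leukocytes.

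The stretches just upstream of the ligand genes are shown because 3 of them share a kappaB match that was not found in the window of Cxcl15. Each is the 150 bases before the start of the gene in RefSeq (build GRCm38.p6, plus strand, 5′ to 3′). Capitals mark matches to a kappaB core, spelled GGG, then 3 bases of any kind, then TTCC (on the other strand GGAA, 3 bases of any kind, CCC), and to the TATA box TATAAA (on the other strand TTTATA). The windows are chr5:90891095-90891244 for Cxcl1, chr5:90903749-90903898 for Cxcl2, chr5:90785951-90786100 for Cxcl3 and chr5:90794384-90794533 for Cxcl15.
Cxcl1: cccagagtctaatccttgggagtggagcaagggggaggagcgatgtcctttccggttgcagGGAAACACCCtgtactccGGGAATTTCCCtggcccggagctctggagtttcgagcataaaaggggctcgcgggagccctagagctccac
Cxcl2: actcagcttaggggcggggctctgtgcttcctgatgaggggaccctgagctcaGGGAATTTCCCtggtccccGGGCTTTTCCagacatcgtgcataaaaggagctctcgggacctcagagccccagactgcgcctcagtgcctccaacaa
Cxcl3: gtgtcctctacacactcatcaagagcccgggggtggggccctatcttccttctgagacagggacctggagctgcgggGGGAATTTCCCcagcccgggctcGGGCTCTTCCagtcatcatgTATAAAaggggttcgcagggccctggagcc
Cxcl15: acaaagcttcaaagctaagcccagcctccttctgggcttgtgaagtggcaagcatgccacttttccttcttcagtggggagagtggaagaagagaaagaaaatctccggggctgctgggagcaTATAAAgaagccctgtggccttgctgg
Cxcl1, Cxcl2 and Cxcl3 each held 2 separate places with the kappaB core. In each promoter, one of these places matched on both strands with the overlap counted as a single place. It lay 71 to 61 bases before the start in Cxcl1, 97 to 87 in Cxcl2 and 73 to 63 in Cxcl3. The core was found in 3.05% of 32851 windows of the same length (1001 windows). TATAAA was found in Cxcl3 and Cxcl15, and 7.57% of all windows held it. Entries matched 6 of the 7 genes, all but Cxcl5, and neither motif was found in the windows of Cxcr1 and Cxcr2. A match describes the letters only, and no binding was measured.

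Libraries held 32323375 to 39081663 counts, and levels are in CPM, counts normalised to totals scaled by the TMM method. The summed level of 8 general epithelial markers was 6811 to 10565 CPM over the 23 libraries, in accord with the label of epithelium. That label names airway cells, and the fresh cells carried markers of alveolar type 2 cells as well as of club cells. Macrophage markers were present in every library. Of 15 neutrophil markers, 14 had a count in fresh cells, 13 at airlift, 11 in control and 10 with NTHi. Among them Ctsg was at 0 in all 23 libraries, Mpo was at 0 in all day 4 libraries, and Ly6g stayed at a mean of 0.0278 CPM or less in each group. Control replicate 1 and NTHi replicate 3 of experiment C stood apart from the other replicates of their group, with a chi-square per degree of freedom of 20.7 to 43.2 in the 4 pairs that held them and 1.49 to 13 in the other 9. Without these libraries the 5 ligands were still called higher with NTHi and Cxcr1 lower.

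All 5 ligands were higher and both receptors lower with NTHi than in control cultures at day 4. Over the 16337 genes tested, 20.1% were called higher, 20.4% lower and 40.5% in either direction (edgeR quasi-likelihood test, Benjamini-Hochberg adjusted p below 0.05). Rises made up 49.6% of these calls, and 34.1% under scaling by library totals alone, where the 5 ligands and Cxcr1 kept their calls. No NTHi library overlapped the control libraries for the 5 ligands and Cxcr1, while 8.26% of genes tested had every NTHi library above every control library and 7.52% had every one below. All 7 genes passed the filter on low counts, Cxcr2 through the control libraries alone, so its call and its lack of overlap add nothing here.

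Cxcl5, a chemokine typical of epithelial cells, showed the largest estimated rise of the 5 ligands and the smallest relative spread with NTHi. Control cultures ran from 20.9 to 37.4 CPM with a median of 26.1, and NTHi cultures from 997 to 1192 with a median of 1040. The groups lay far apart. The log2 fold change was 5.37 ± 0.11 (SE, edgeR adjusted p = 3.75e-14), a 41-fold difference of means, and 7 of 7 NTHi libraries lay above every control. The coefficient of variation of Cxcl5 across NTHi libraries was 6.4%, against 21.4% across controls.

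Cxcl1, also known as KC, had the second largest rise. Its control level ran from 2.72 to 7.31 CPM (median 3.6) and its NTHi level from 75.8 to 159 (median 132). The highest control library was thus below the lowest NTHi library by a wide margin. Its log2 fold change was 4.82 ± 0.24 (edgeR adjusted p = 6.25e-10), a 28.3-fold difference of means.

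Cxcl2, or MIP-2, lies next to Cxcl1 on the chromosome. It moved from 13.5 to 28.2 CPM (median 16.4) in control to 160 to 350 CPM (median 252) with NTHi. The rise was 3.73 ± 0.21 on the log2 scale (edgeR adjusted p = 1.94e-09). For Cxcl3, a near relative of Cxcl2, control libraries held 67.9 to 135 CPM (median 101) and NTHi libraries 339 to 1393 (median 1010), a rise of 3.20 ± 0.25 (edgeR adjusted p = 9.97e-08). The lowest Cxcl3 value with NTHi, 339 CPM, was that of experiment C replicate 3, and the next was 815. That library also had the lowest summed macrophage markers of the NTHi group (406 CPM, against 1240 to 1644 in the other 6) and the lowest summed leukocyte markers (242 CPM, against 546 to 866). Control replicate 1 of experiment C was lowest in its group for Cxcl3 (67.9 CPM), for macrophage markers (2317 CPM) and for leukocyte markers (569 CPM). That NTHi library was also the lowest of its group for Cxcl1 (75.8 CPM), Cxcl2 (160) and Cxcl15 (378), and the highest for Cxcl5 (1192). That control library was also the lowest of its group for Cxcl1 (2.72 CPM) and Cxcl15 (72.2), but not for Cxcl2 or Cxcl5. The part of these cells in the values of the 5 ligands, and in the ratios between them, was not tested. Transcripts of Cxcl2 and Cxcl3 share an identical stretch of 157 bases, longer than for any other pair of ligands (23 bases at most), so reads there could belong to either gene and the split between these 2 genes is uncertain.

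Cxcl15 rose least. Control libraries held 72.2 to 128 CPM (median 121) and NTHi libraries 378 to 478 (median 397). Its log2 fold change was 1.88 ± 0.10 (edgeR adjusted p = 1.14e-09), a 3.66-fold difference of means. The lowest control value, 72.2 CPM, belonged to experiment C replicate 1.

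Levels of different genes can be set side by side only per length. Per kilobase of exon, the NTHi cultures held 952 ± 336 CPM of Cxcl3, 676 ± 43.3 of Cxcl5, 194 ± 16.7 of Cxcl15, 135 ± 31.5 of Cxcl2 and 128 ± 32 of Cxcl1 (SD, n = 7). Cxcl3 and Cxcl5 overlapped each other in this order, as did Cxcl15 with Cxcl2 and Cxcl2 with Cxcl1. Control cultures led with Cxcl3 at 102 ± 23.4 and Cxcl15 at 53 ± 9.49, and Cxcl1 was lowest of the ligands at 4.51 ± 1.79.

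**Figure D1:**
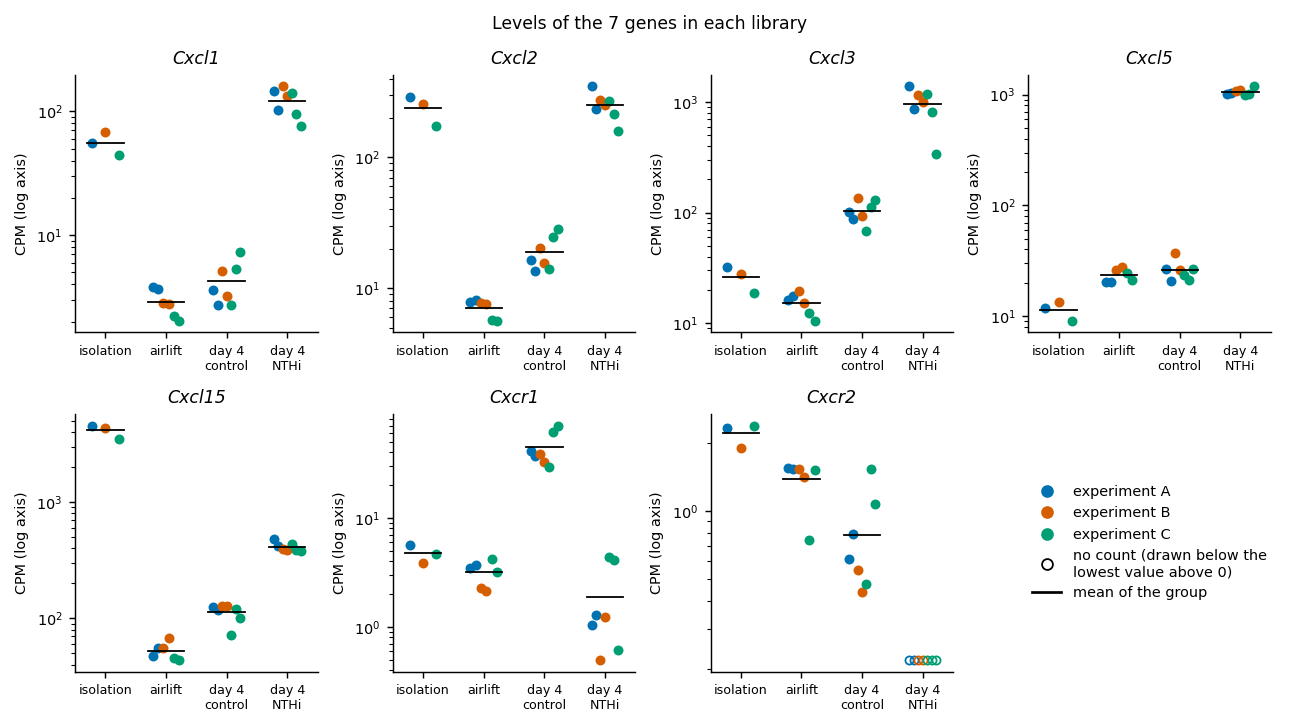
CPM (log axis) of each of the 7 genes in each of the 23 libraries, by group, with a point per library coloured by experiment and a line at the group mean. With NTHi the ligands sat above every control library and the receptors below, and Cxcr2 had no count in any of the 7 NTHi libraries (open points, drawn below the lowest value above 0).

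Both receptors were lower with NTHi. Cxcr1 held 29.1 to 70.1 CPM in control cultures (median 38.1) and 0.496 to 4.37 CPM with NTHi (median 1.22). The groups did not overlap, and the log2 fold change was -4.65 ± 0.34 (edgeR adjusted p = 4.44e-08). Within the NTHi group, experiment C replicates 1 and 2 held 4.37 and 4.14 CPM, and the other 5 libraries held 1.27 CPM or less.

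Cxcr2 had no count in any of the 7 NTHi libraries and 18 to 62 counts in each control library, 0.437 to 1.54 CPM with a median of 0.613. Set against a floor of 3 counts over the NTHi group, its level was at least 69.7-fold lower than in control, or at least 34.9-fold if each fragment was counted as 2 reads. A gene that passes the filter only where it is high has to differ, so its test adds nothing to this description.

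Macrophage markers moved in the same direction as the receptors. Of 16 markers, 13 were called lower with NTHi and 1 (Adgre1, a pan-macrophage receptor) higher, beside 20.4% and 20.1% of all genes tested. Their summed level was 2317 to 4676 CPM in control and 406 to 1644 with NTHi, 3.11-fold lower by means. Siglecf, which marks alveolar macrophages, changed by -4.02 ± 0.26 and Fabp4, a fatty acid carrier of these cells, by -3.41 ± 0.24 (log2). Markers of other cells fell as well. For alveolar type 1, basal and club cells, 7 of 8 markers each were called lower. Their sums were 2.31-fold, 2.12-fold and 1.79-fold lower by means. Of tested endothelial markers 4 of 7 were lower, as were 4 of 6 for lymphocytes, with 1 endothelial and 1 alveolar type 1 marker higher. Of 8 epithelial markers 5 were higher and 2 lower. The fold difference of Cxcr1 was 23.6, and the part of any of these cells in it was not tested. In bulk samples fewer cells of a type and less RNA per cell cannot be told apart. Genes that define neutrophils were at or near 0 in these cultures, as given above, while Ltf, which airway epithelium also makes, held 535 ± 151 CPM in control and 1553 ± 235 with NTHi (SD, n = 7) and made up most of the neutrophil list. That list of 15 genes summed to 344 to 727 CPM in control and 1332 to 2053 with NTHi, with 3 of its 5 tested genes higher and none lower.

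**Figure D2:**
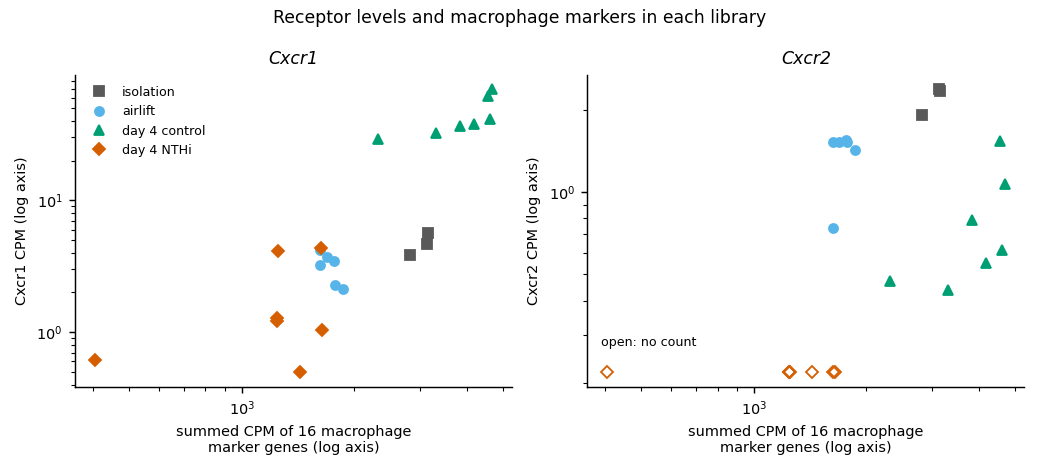
Cxcr1 (left) and Cxcr2 (right) in CPM against the summed CPM of 16 macrophage markers, both on log axes, with a point per library and a symbol per group. Control libraries lay at 2317 to 4676 summed CPM with Cxcr1 at 29.1 or above, and fresh cells, at 2815 to 3146 summed CPM, held Cxcr1 at 5.66 or below; Cxcr2 was highest in fresh cells and without a count with NTHi.

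The NTHi effect kept its direction in each experiment for all 6 genes with counts in both groups. Cxcl1 changed by 5.29 ± 0.44, 5.12 ± 0.43 and 4.34 ± 0.34 in experiments A, B and C, and Cxcl2 by 4.29 ± 0.35, 3.87 ± 0.34 and 3.27 ± 0.27. Cxcl5 changed by 5.44 ± 0.19, 5.11 ± 0.19 and 5.49 ± 0.16, and Cxcr1 by -5.08 ± 0.67, -5.37 ± 0.70 and -4.14 ± 0.49. A test of the difference between experiments called none of the 7 genes (edgeR adjusted p from 0.99968 to 1). It called 0 of 16337 genes, with 675 at an unadjusted p below 0.05, and a likelihood ratio test in DESeq2 called 5.

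**Figure D3:**
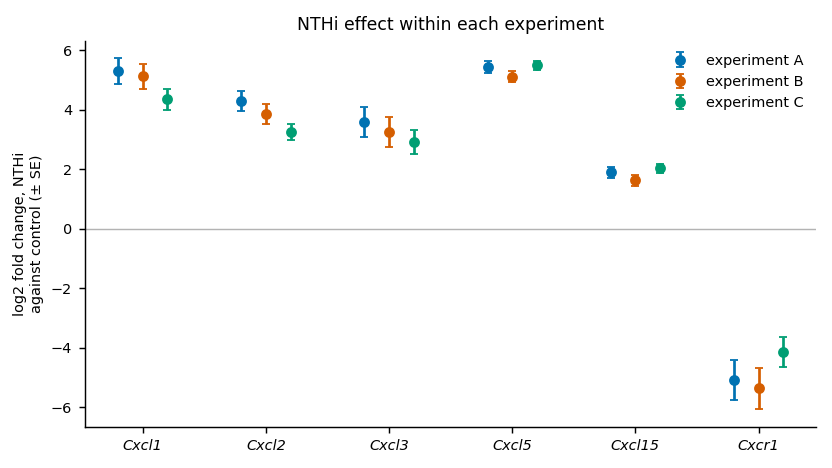
Log2 fold change of NTHi against control within experiments A, B and C for the 5 ligands and Cxcr1, with bars of 1 SE. Ligands lay above 0 and Cxcr1 below 0 in every experiment, and Cxcr2 is left out because it had no count with NTHi.

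The ligands did not rise by the same factor. Ratios of counts between ligands were taken within each library, which removes the scaling between libraries, and all 10 pairs were compared between NTHi and control by an exact two-sided permutation within experiments (720 arrangements, Benjamini-Hochberg adjusted over the 10 pairs). The ratio shifted in 9 of 10 pairs. Cxcl5 gained most on Cxcl15, by 3.49 on the log2 scale or 11.2-fold, and gained 2.23 on Cxcl3 and 1.64 on Cxcl2. Cxcl1 gained 2.98 on Cxcl15, 1.72 on Cxcl3 and 1.13 on Cxcl2. Each of these 6 shifts had an exact permutation p of 0.002778 (adjusted 0.003472), the smallest that the arrangements allow, and in each all 7 NTHi libraries lay above the highest control library.

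Cxcl2 gained 1.85 on Cxcl15 and 0.60 on Cxcl3 at the same permutation p, the latter between genes that share sequence. Cxcl3 gained 1.25 on Cxcl15 (exact permutation p = 0.01111, adjusted 0.01234), with 6 of 7 NTHi libraries above the highest control, and did not pass without experiment A or B (adjusted p = 0.07407). Cxcl5 against Cxcl1 shifted by 0.51, which did not pass (exact permutation p = 0.1056). This shift was 0.17 in experiment A, -0.02 in B and 1.09 in C. With experiment C left out, 36 arrangements remain and none of the 10 pairs passed (lowest adjusted p = 0.06173), although Cxcl5 against Cxcl15 then shifted by 3.53.

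**Figure D4:**
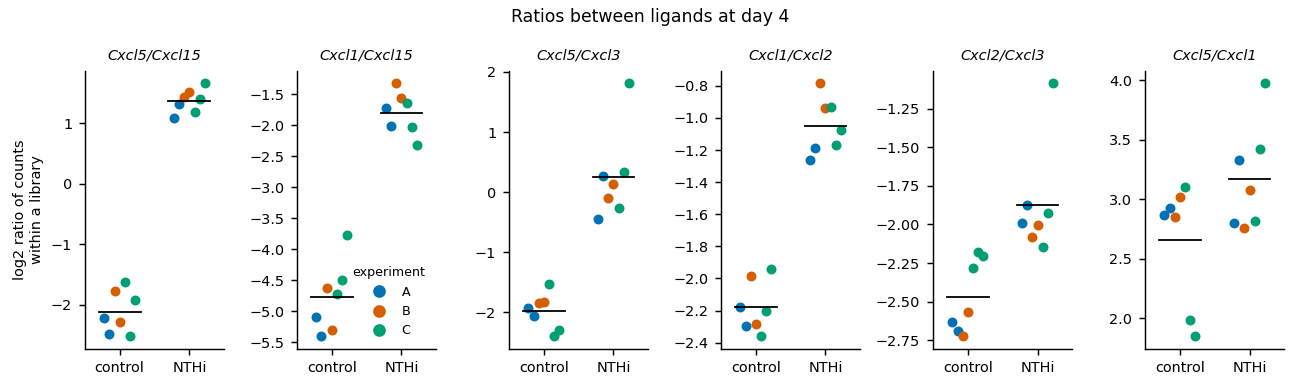
Log2 ratio of counts of 2 ligands within each day 4 library, for 6 of the 10 pairs, with a point per library coloured by experiment and a line at the group mean. The groups are apart for 5 of the pairs and overlap for Cxcl5/Cxcl1, where experiment C control replicates 2 and 3 lie lowest.

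The same genes also differed between fresh cells and untreated cultures. Fresh cells carried high Cxcl1, Cxcl2 and Cxcl15, which fell by airlift, while Cxcl5 rose. At airlift 5 of the 7 genes were lower than in fresh cells and 1 was higher, beside 36.7% lower, 37.9% higher and 74.6% in either direction of the 18302 genes tested. The comparisons below share the fresh, airlift or control libraries, so their values are given side by side and are not independent.

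Cxcl15 held 4554, 4360 and 3485 CPM in fresh cells of experiments A, B and C, and 43.8 to 68.2 CPM (median 51.5) at airlift. Its log2 fold change was -6.28 ± 0.12 (edgeR adjusted p = 9.37e-18). The summed levels of 8 alveolar type 2 markers fell alongside, from 81733 to 107713 CPM in fresh libraries to 1426 to 1531 at airlift, and those of 8 club cell markers from 171118 to 191455 to 19481 to 27316. All 8 genes of each list were called lower at airlift, beside 36.7% of all genes tested, and their part in the fall of Cxcl15 was not tested.

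Cxcl2 held 288, 256 and 173 CPM in fresh cells and 5.64 to 8.18 CPM (median 7.59) at airlift, with a log2 fold change of -5.05 ± 0.22 (edgeR adjusted p = 3.17e-13). Cxcl1 held 55.2, 67.5 and 44.4 CPM in fresh cells and 2.04 to 3.83 CPM (median 2.81) at airlift, with a change of -4.24 ± 0.26 (edgeR adjusted p = 3.8e-11). For both genes every fresh library was above every airlift library. Experiment C was lowest in fresh cells and at airlift for these genes.

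Cxcl3 and Cxcl5 went separate ways. Cxcl3 held 32.2, 27.7 and 18.8 CPM in fresh cells and 10.5 to 19.6 CPM (median 15.7) at airlift, which overlapped, with a change of -0.76 ± 0.19 (edgeR adjusted p = 0.00155). Cxcl5 held 11.8, 13.4 and 9.08 CPM in fresh cells and 20.1 to 27.9 CPM (median 22.8) at airlift, a rise of 1.05 ± 0.12 without overlap (edgeR adjusted p = 4.39e-07). The receptors differed little. Cxcr1 held 5.66, 3.88 and 4.65 CPM against 2.11 to 4.18 (-0.58 ± 0.24, edgeR adjusted p = 0.0408). This call was lost without the fresh library of experiment A or B, without either airlift library of B or without airlift replicate 2 of C (adjusted p from 0.0661 to 0.214). It was also lost without experiment A (adjusted p = 0.141) or B (0.209), with no experiment term (0.0834) and with counts divided by 2 (0.0659). The same held with all 23 libraries in 1 fit (adjusted p = 0.159) and with a minimum log2 change of 1. Cxcr2 held 2.34, 1.91 and 2.39 CPM against 0.741 to 1.55, and its change of -0.64 ± 0.32 did not pass (edgeR adjusted p = 0.0793), though it passed without control replicate 2 of experiment C (adjusted p = 0.0368), with no filter on low counts (0.0381) and with counts divided by 2 (0.0446). Of the 16 macrophage markers, 11 were lower at airlift than in fresh cells and 1 was higher, beside 36.7% and 37.9% of all genes tested. Their summed level was 2815 to 3146 CPM in fresh cells and 1623 to 1864 at airlift, and their part in the receptor values was not tested.

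These small changes depended on the scaling. With library totals alone, the median of all genes was 0.49 on the log2 scale at airlift against fresh cells, and Cxcl3 (-0.28) and Cxcr1 (-0.09) were no longer called. Relative to that median they were -0.76 and -0.58. Cxcl1, Cxcl2, Cxcl5 and Cxcl15 kept their calls under either scaling. Rises made up 50.8% of all calls in this comparison and 70.6% with totals alone. The shares were 50.7% and 69.3% for day 4 control against fresh cells, and 50.3% and 65.9% for NTHi against fresh cells, where the medians of all genes under totals were 0.49 and 0.42.

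From airlift to day 4 without NTHi, 4 of the 7 genes rose and 1 fell, beside 26.9% higher, 27.7% lower and 54.5% in either direction of all genes tested. The largest rise was that of Cxcr1, to the control values above, by 3.76 ± 0.18 (edgeR adjusted p = 1.08e-11), a 14-fold difference of means without overlap. Cxcl3 rose by 2.80 ± 0.16 (edgeR adjusted p = 9.73e-11), Cxcl2 by 1.41 ± 0.19 (edgeR adjusted p = 4.57e-06) and Cxcl15 by 1.12 ± 0.09 (edgeR adjusted p = 1.21e-08), each without overlap. Cxcr2 went the other way from Cxcr1, with a change of -0.89 ± 0.27 (edgeR adjusted p = 0.0105) that was not called without experiment A or without experiment B. Cxcl5 (0.16 ± 0.09, adjusted p = 0.144) and Cxcl1 (0.56 ± 0.24, adjusted p = 0.0527) did not pass in edgeR. Cxcl1 passed without any 1 of the airlift and control libraries of experiment A, without control replicate 2 of B or without control replicate 1 of C (adjusted p from 0.0209 to 0.0499), and with no filter on low counts (adjusted p = 3.38e-07). It also passed with DESeq2's size factors (adjusted p = 0.0493), with no experiment term (0.0453), with all 23 libraries in 1 fit (0.042) and without experiment A (0.95, adjusted p = 0.0103).

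The summed macrophage markers were 2.28-fold higher by means in day 4 controls than at airlift, where they held 1623 to 1864 CPM. Of the 16 markers 9 were called higher and 6 lower, beside 26.9% and 27.7% of all genes tested. Macrophage markers thus moved in the direction of either receptor. Markers of other cells also rose, among them all 7 tested fibroblast, 7 of 8 basal, all 8 multiciliated and 7 of 8 alveolar type 2 markers. Of 8 dendritic cell markers 5 fell and 1 rose. The part of any of these cells in the changes of the 7 genes was not tested.

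Day 4 control cultures differed from fresh cells in all 7 genes, 3 higher and 4 lower, beside 38.8% higher, 37.7% lower and 76.6% in either direction. Cxcr1 (3.18 ± 0.24), Cxcl3 (2.04 ± 0.20) and Cxcl5 (1.20 ± 0.12) were higher. Cxcl15 (-5.16 ± 0.11), Cxcl1 (-3.68 ± 0.24), Cxcl2 (-3.64 ± 0.20) and Cxcr2 (-1.53 ± 0.32) were lower, all on the log2 scale. Markers of other cells differed as well. Of the 16 macrophage markers 8 were lower and 5 higher than in fresh cells, and of 7 tested neutrophil markers 5 were lower and 1 was higher. All 9 tested lymphocyte markers, all 8 dendritic cell markers, all 8 alveolar type 2 markers and all 8 club cell markers were lower. In contrast, 7 of 8 basal cell markers were higher and none lower. Of 7 tested fibroblast markers 5 were higher and 1 lower, and of 8 alveolar type 1 markers 5 were higher and 1 lower. Their part in the values of the 7 genes was not tested.

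Against fresh cells, NTHi cultures held more Cxcl5, Cxcl3 and Cxcl1 and less Cxcl15, Cxcr1 and Cxcr2, with no call for Cxcl2. The 3 genes called higher and the 3 called lower stood beside 39.0% higher, 38.5% lower and 77.5% in either direction of 18586 genes. Cxcl5 and Cxcl3 were far above the fresh level, by 6.56 ± 0.16 (edgeR adjusted p = 9.11e-21) and 5.24 ± 0.34 (edgeR adjusted p = 1.27e-12), and Cxcl1 was above it by 1.15 ± 0.24 (edgeR adjusted p = 0.000116). Cxcl2 was at 251 ± 58.6 CPM with NTHi (SD, n = 7) and 239 ± 59.3 in fresh cells (SD, n = 3), which overlapped, and its difference of 0.09 ± 0.21 did not pass (edgeR adjusted p = 0.692). Cxcl15 stayed below, at -3.29 ± 0.11 (edgeR adjusted p = 4.57e-18). Cxcr1 was lower than in fresh cells by the test (-1.48 ± 0.39, edgeR adjusted p = 0.00147) with overlapping libraries, and not without experiment A (-1.16, adjusted p = 0.0575). Cxcr2 was at least 198-fold lower against the same floor, or at least 98.9-fold if each fragment was counted as 2 reads. Of the 16 macrophage markers 11 were lower with NTHi than in fresh cells and 1 was higher (median log2 change -2.32), and of 7 tested neutrophil markers 5 were lower and 2 higher. All 8 alveolar type 2 and all 8 club cell markers were lower. Of 7 tested fibroblast markers 5 were higher and none lower, and of 8 epithelial markers 5 were higher and 2 lower. Their part in the values of the 7 genes was not tested.

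**Figure D5:**
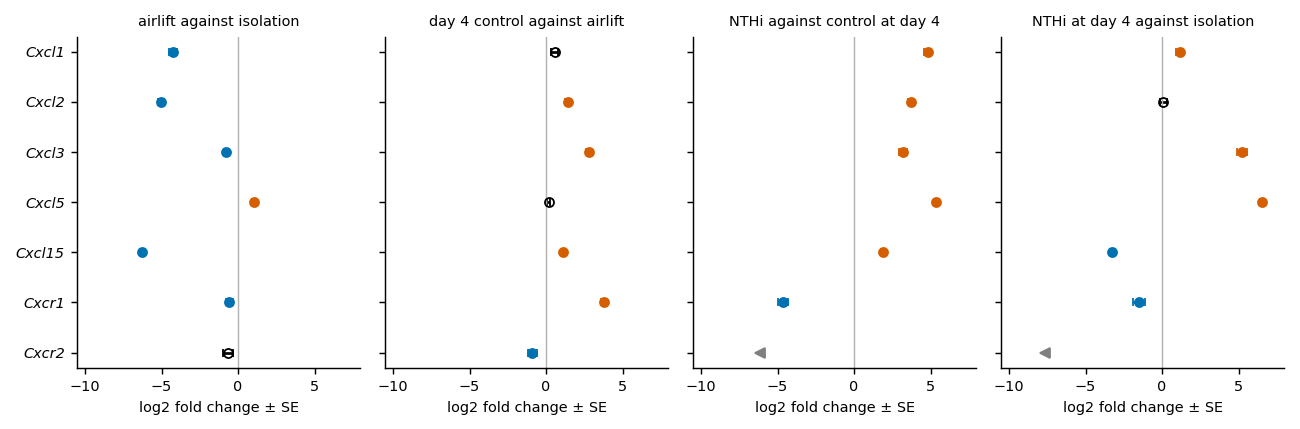
Log2 fold change with bars of 1 SE for the 7 genes in 4 comparisons, orange where called higher, blue where called lower and open where not called; the grey triangle for Cxcr2 is the bound set by a floor of 3 counts over the NTHi group (at least 69.7-fold and at least 198-fold lower, or 34.9-fold and 98.9-fold if each fragment was counted as 2 reads). Cxcl1, Cxcl2 and Cxcl15 fell to airlift and rose with NTHi, and Cxcr1 rose in untreated culture and fell with NTHi.

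The 5 ligand genes lie side by side on chromosome 5, in the RefSeq order (GRCm38.p6) Cxcl5, Ppbp, Pf4, Cxcl3, Cxcl15, Cxcl1 and Cxcl2, with no other gene between them. Ppbp, which encodes the precursor of the neutrophil attractant Cxcl7, rose with NTHi by 1.84 ± 0.15, from 34.4 ± 10 to 128 ± 51.8 CPM (SD, n = 7). Unlike most of the ligands it was low in fresh cells (0.671 ± 0.181 CPM, n = 3) and rose to airlift by 5.64 ± 0.39. Pf4, a platelet chemokine, changed by -0.60 ± 0.23 with NTHi. The flanking genes Rassf6 and Mthfd2l changed by 0.93 ± 0.07 and 0.54 ± 0.07. On chromosome 1 Cxcr2 and Cxcr1 are neighbours, with Rufy4 before them, which changed by -4.26 ± 0.22, and Arpc2, an actin regulator, after them, which changed by -0.19 ± 0.06. All of these passed in edgeR.

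Other genes of the pathway were counted over whole lists, and most of those named had the smallest p-values of their list. The counts for NTHi stand beside 20.1% higher and 20.4% lower of all genes tested. Of 11 other CXC and CX3C chemokines, 9 were tested for NTHi, 4 rose and 3 fell, with a median log2 change of 0.59 beside 0 over all genes. Besides Ppbp these were Cxcl16 (0.94 ± 0.03), a scavenger and chemokine on the cell surface, Cxcl10 (0.82 ± 0.15), which attracts T cells, and Cx3cl1 (0.59 ± 0.07). The smallest log2 change of the 5 ligands described here, 1.88 ± 0.10 for Cxcl15, was close to that of Ppbp (1.84 ± 0.15). It was above those of Cxcl16, Cxcl10 and Cx3cl1, and these differences were not tested. Of 5 tested other CXC and atypical receptors none rose and 2 fell (Cx3cr1, -2.0 ± 0.34, and Cxcr5, -0.51 ± 0.19). The call of Cxcr5 was lost without any of the experiments (edgeR adjusted p from 0.0562 to 0.135).

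Among 12 other neutrophil attractants and their receptors, 2 rose and 5 fell with NTHi, with a median of -0.33. Of all genes tested, 20.1% were higher and 20.4% lower. Csf3, the growth factor for neutrophils, rose by 4.75 ± 0.16 from 0.875 ± 0.274 to 23.8 ± 4.23 CPM (SD, n = 7), and Csf2, a growth factor for myeloid cells, by 3.06 ± 0.11. Alox5 (-2.21 ± 0.22) and Lta4h (-0.40 ± 0.04), enzymes of leukotriene synthesis, fell. Of 16 tested inducers and their receptors, 11 rose and 1 fell (median 0.49). They included Cd14, a co-receptor for endotoxin (3.0 ± 0.10), the cytokine Tnf (1.5 ± 0.10), its receptor Tnfrsf1b (1.05 ± 0.08) and Traf3ip2, the adaptor of the interleukin 17 receptor (0.63 ± 0.05).

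Of 22 regulators of chemokine transcription and mRNA decay, 14 rose and 1 fell with NTHi (median 0.33), beside 20.1% and 20.4% of all genes tested. Those with the smallest p were Zc3h12a, an RNase that degrades inflammatory mRNA (3.06 ± 0.05), Nfkbiz, an NF-kB cofactor (2.67 ± 0.05), Cebpd, a transcription factor (2.01 ± 0.07), and Tnfaip3, an inhibitor of NF-kB signalling (1.54 ± 0.05). At airlift against fresh cells 20 of these 22 genes were lower and 1 was higher (median -1.46), beside 36.7% and 37.9% of all genes tested. The lower ones included Fos (-4.86 ± 0.12) and Jun (-3.18 ± 0.10), genes that respond within minutes to stress. Of 15 genes for receptor coupling, arrestins and kinases, 5 rose and 3 fell with NTHi (median 0.04), again beside 20.1% and 20.4% of all genes tested. The G-protein regulator Rgs16 rose by 3.29 ± 0.07. Of 14 tested proteoglycans that bind chemokines and proteases that cut them, 9 rose and 2 fell (median 0.49), including Mmp8 (3.25 ± 0.29) and Mmp9 (1.59 ± 0.12).

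Likeness of pattern was measured by Pearson's r of log2 CPM over the 23 libraries and 18586 genes, as a description, since the libraries fall into 4 groups. Cxcl1 was most like Gch1 (0.985), Zc3h12a (0.984) and Vnn3 (0.983), and Cxcl2 most like Chi3l1 (0.992), Gk (0.977) and Gch1 (0.973). Cxcl15 was most like Nfkbid (0.986), Bex2 (0.983) and Adam19 (0.978). These genes were high in fresh cells, low at airlift and higher again with NTHi. Vnn3, a vanin, for example, held 21.6 ± 0.919 CPM in fresh cells (SD, n = 3), 1.83 ± 0.275 at airlift (SD, n = 6) and 99.2 ± 17.2 with NTHi (SD, n = 7).

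Cxcl3 was most like Mmp13 (0.984), Rnf149 (0.98) and Hif1a (0.98), the first a collagenase and the last a transcription factor of the hypoxia response. Cxcl5 was most like Fndc4 (0.981), Micall2 (0.98) and Csta2 (0.977). Cxcr1 was most like Cyb561a3 (0.957), Scarb2 (0.954) and the macrophage marker Fabp4 (0.948), and Cxcr2 most like the macrophage markers C1qc (0.982), C1qa (0.978) and Ear2 (0.973). Among the pairs of ligands, Cxcl1 and Cxcl2 had the highest r (0.978), Cxcl3 and Cxcl5 came next (0.891), and Cxcl5 and Cxcl15 had the lowest (0.179).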

How the data were processed

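Bulk RNA was sequenced in 23 libraries. For each experiment the authors deposited a table of raw, whole-number counts per gene. Per the submitters' processing notes, STAR and DESeq2 were used with the mouse build GRCm39 (no versions given). Which program counted reads, and whether by strand, is not given in the sources used here. Each table held 41098 lines, of which 25 broken ones were left out (at most 0.0822% of a library's counts). Libraries held 32323375 to 39081663 counts. Of counts below 20, 69.3% to 74.9% were even, so both reads of a pair may have been counted, and floors cover counting error only. Over 13 replicate pairs, chi-square per degree of freedom was 1.486 to 43.161. Counts were halved for this chi-square, as if each fragment gave 2 counts. The airlift pairs of experiments A (1.486) and C (1.788) had the lowest values, which still exceeded sampling noise by this test. They were kept as separate libraries, as labelled, and no call of the 7 genes changed when counts were summed per experiment and group, which counts each pair once.

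Groups came from the labels. Comparisons were fitted with edgeR 4.0.16 (R 4.3.3): filterByExpr (minimum count 10), TMM scaling, a quasi-likelihood F-test with group and experiment as terms, and Benjamini-Hochberg adjustment over all genes tested with a threshold of 0.05. NTHi against control used the 14 day 4 libraries, untreated comparisons the 16 untreated libraries, and NTHi against fresh cells all 23. Standard errors are the log2 fold change over the square root of F. CPM values used TMM-scaled totals of all libraries, and ligand ratios a pseudocount of 0.5. Exon lengths and shared stretches came from GENCODE M21, and promoter sequences and gene order from RefSeq GRCm38.p6. The fit was tested on simulated data.

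The 7 genes, the lists and the tests were chosen with earlier results of these data known. Named were the 7 genes, the 3 genes most like each (a prior count of 2), and up to 4 genes with the smallest p of each list in a comparison, of which a part is printed, as well as marker genes, neighbours and those that flank them. Alternatives were other scalings, DESeq2 1.42.0, no filter, no experiment term, summed counts, a minimum log2 change of 1, counts divided by 2, fits on more or fewer libraries, a replicate block, and each experiment or library left out. Leaving out the 2 libraries that stood apart was added after the data were seen.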

Additional observations from a re-analysis of the deposited data

Results flagged for a closer look

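Each gene was checked in each group of 4 to 10 libraries for a library far from the others (20 groups, of which chance alone flags about 1 in 20), and 2 were found. Cxcl5 in control cultures was highest in experiment B replicate 1, at 37.4 CPM, with the nearest other library at 26.4, a gap of 0.666 of the whole range. Cxcr2 at airlift was lowest in experiment C replicate 1, at 0.741 CPM, with the nearest at 1.42, a gap of 0.839 of the range.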

How the results depend on the processing

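Over all comparisons and alternatives, the members kept direction and side of the threshold in 1027 of 1070 cases, lost the call in 25, gained it in 16 and changed sign in 2; for the genes named from the lists the numbers were 4198, 74, 6 and 2 of 4280. With NTHi against control, the count of members called higher stayed at 5, and that of members called lower was 1 instead of 2 when counts were divided by 2, since Cxcr2 then fell below the filter. At airlift against fresh cells, 3 members instead of 5 were lower with library totals alone, and 3 lower and 0 higher with a minimum log2 change of 1. From airlift to day 4 control, 2 members were higher and 0 lower with that minimum, and 0 were lower without experiment A or without experiment B. For ligand ratios, 0 of 10 pairs passed without experiment C, where the arrangements allow no smaller p. Cxcl2 in NTHi against fresh cells, not called at 0.09, was -0.015 without NTHi replicate 1 of experiment A and -0.078 without the fresh library of experiment C, with a highest value of 0.23 without that of experiment A, and was called at 0.51 with library totals alone. From airlift to day 4 control, Cxcr5 turned to -0.12 without experiment A and Cxcr3 to 0.094 without experiment C, neither called, and the cause was not tested. Leaving out single libraries moved the log2 change of Cxcl1 with NTHi between 4.72 and 5.01 and that of Cxcr1 between -4.90 and -4.44. Deviations of same-numbered libraries from the mean of their group had r from -0.494 to 0.133. Where an experiment held 2 replicates of a group, both gave the same r by construction. These values therefore cannot tell whether the numbers paired the libraries. With a replicate block, Cxcl1 changed by 4.84 and Cxcr1 by -4.70, and 5 members were higher and 2 lower, and no call of a member changed from airlift to day 4 control. Among list genes the block ended the NTHi call of Cxcr5 (-0.52, adjusted p = 0.0731). Depth limits Cxcr2 most, with 62 counts or fewer in each control library.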
